A study of Danio rerio with 21 samples.

Results

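The comparison set the zebrafish libraries labelled atf4a-/-;atf4b-/-;sec31anju221 against those labelled sec31anju221, with 6 of the 21 libraries of the series and 3 per genotype. RNA came from livers dissected at 7 days post fertilization (dpf) and dispersed with trypsin, and was read by low-input RNA sequencing. Both groups carry sec31anju221, a gene-trap insertion in an intron of sec31a that encodes a truncated fusion protein and leaves some function. The atf4a-/-;atf4b-/- group also carries CRISPR/Cas9 deletions in atf4a and atf4b, and all of these alleles act in the whole larva rather than in the liver alone. The question of the comparison is which transcripts of the sec31a mutant liver depend on the paired Atf4 factors. The 3 WT libraries of the same age are given beside them as the unmutated level. All genes entered the comparison. The comparison and the gene lists were chosen with earlier results of these data known. Many of the genes named below were picked for the size of their change.

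Sec31a is part of the outer coat of COPII vesicles, which move new proteins out of the endoplasmic reticulum (ER) toward the Golgi, and COPI vesicles bring proteins and membrane back. When cargo or misfolded protein builds up in the ER, the unfolded protein response (UPR) is started by the sensors Perk, Ire1 and Atf6. Perk phosphorylates eIF2α, which slows translation in general and favours that of Atf4. Atf4 is known, mostly from mammalian cells, for inducing amino acid synthesis, amino acid transporters, tRNA synthetases and the stress factors Atf3 and Chop, and the wider response is called the integrated stress response (ISR). The liver secretes large amounts of plasma protein and lipoprotein and so has a high load on this pathway. Roles of genes given below are those known in mammals or yeast unless zebrafish is named.

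Total counts were 20539492 to 20597028 in the sec31anju221 libraries and 11621748 to 11666806 in the libraries labelled atf4a-/-;atf4b-/-;sec31anju221, called the atf4a/b-labelled libraries from here on. The number of genes reaching 1 CPM (the count relative to the total of its library) was 15396 to 15433 in the former and 21674 to 21731 in the latter, so that lower depth went with more genes detected. The most abundant transcript, apoa2, took 11.3% to 11.7% and 10.6% to 11% of the counts. Libraries that share a genotype were nearly as alike as repeated sampling of 1 pool would make them. Over genes of 50 to 2000 counts the variance between libraries was 1.86 times the mean in sec31anju221 and 1.81 times in the atf4a/b-labelled group. Over the next class, genes from 2000 counts up with the most abundant left out, these ratios were 1.86 and 2.15. In that second class, dissections that varied by 10% (SD over mean) would have reached 36.8 and 38.9. The libraries were therefore counted as 1 sample per genotype. No difference below has a replicate check, no p-value is given, and each range over libraries shows only how precisely the RNA was sequenced.

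Because depth and composition differed, every fold change was computed under 2 scalings. The all-gene scaling takes library factors from all 31100 genes kept, most of them of low count, and the abundant-gene scaling takes them from the 5238 genes that averaged 10 CPM or more. The 2 scalings differed by a constant 1.22 on the log2 scale, which is 2.32-fold, and the abundant-gene scaling lay within 0.172 log2 units of plain library totals. Levels are given as CPM on the abundant-gene scale. Log2 fold changes, atf4a/b-labelled over sec31anju221, are given as pairs, with the all-gene value first and the abundant-gene value second. A gene was called lower or higher when it was past 2-fold in that direction under both. Gene symbols are those of a name table, which uses human-style capitals for many zebrafish genes.

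The disrupted genes were not lower in the atf4a/b-labelled libraries. The level of atf4a was 4.42, 4.90 and 4.30 CPM in sec31anju221 and 21.9, 20.4 and 20.1 CPM in the atf4a/b-labelled libraries, with 2.61 to 4.31 CPM in WT (log2 fold change 0.98 and 2.19). The level of atf4b was 60.9, 62.2 and 64.9 CPM against 216, 214 and 221 CPM, with 33.9 to 35.9 CPM in WT (0.58 and 1.79). Both genes were thus above sec31anju221 in every library on the abundant-gene scale and past 2-fold under that scaling only. The paper reports by qPCR that atf4a and atf4b mRNA was absent in the respective knockout embryos, which the liver counts here do not match. Counts per gene are blind to the exons from which reads arose, so they neither show nor exclude a transcript without the deleted part. Every direction below rests on the labels. By the same measure xbp1 averaged 0.625 CPM in the xbp1-/-;sec31anju221 libraries against 73.6 CPM in sec31anju221, and atf6 averaged 8.44 CPM in the atf6-/-;sec31anju221 libraries against 232 CPM. SEC31A was 1.85 to 1.90 CPM in sec31anju221, 3.88 to 5.84 CPM in the atf4a/b-labelled libraries and 12.8 to 13 CPM in WT, and its paralog SEC31B was 5.22 to 5.70, 3.15 to 4.42 and 0.948 to 1.42 CPM.

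Of 8439 genes averaging 5 CPM or more over the 6 libraries, 1523 (18%) were lower and 510 (6.04%) were higher under both scalings. With the all-gene scaling alone, 3748 genes (44.4%) were past 2-fold lower and 510 (6.04%) higher. With the abundant-gene scaling alone, 1523 (18%) were lower and 2922 (34.6%) higher. A further 2225 genes were past 2-fold lower with the all-gene scaling only, 2412 were past 2-fold higher with the abundant-gene scaling only, and 1769 genes were past 2-fold under neither. In all 2033 genes called under both, the libraries of the 2 genotypes did not overlap, which adds nothing to the call. Libraries of a genotype differed so little that genes not called, such as P4HB, XBP1 and atf6, did not overlap either. The median log2 fold change of the genes tested was -0.79 and 0.43, and it depended on level. It was -0.41 and 0.81 for the 5304 genes of 5 to 20 CPM, -1.37 and -0.15 for the 2171 genes of 20 to 100 CPM, and 0.43 and 1.62 for the 22661 genes under the minimum. Among genes of 20 to 100 CPM 27.5% were lower under both scalings and 3.45% higher, and among those of 100 to 1000 CPM 26.9% and 5.16%.

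**Figure D1:**
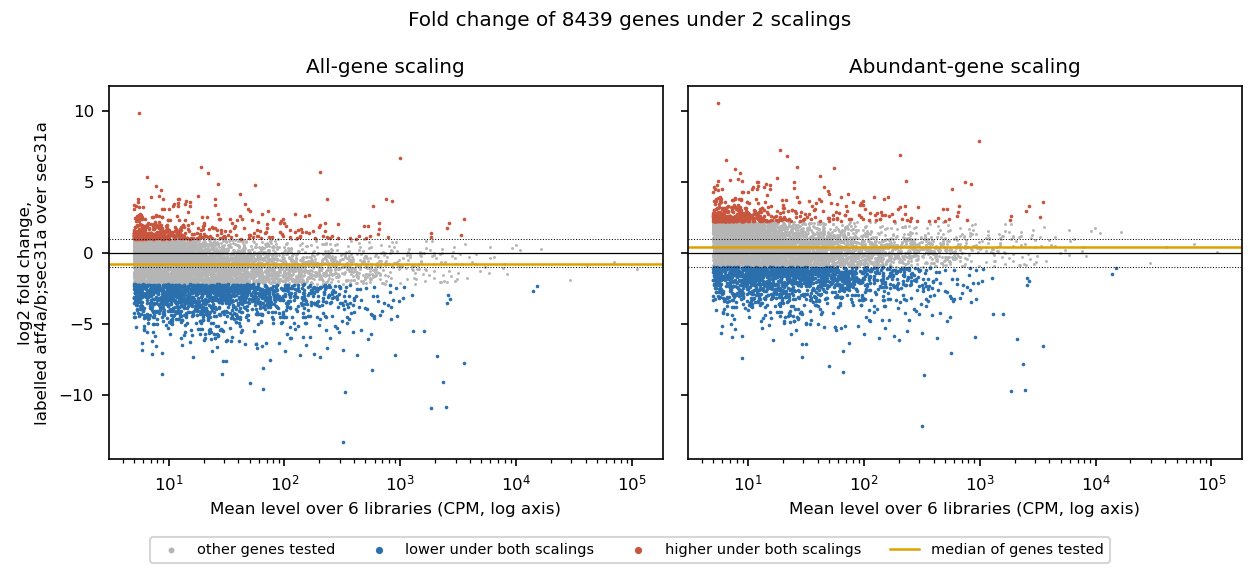
Log2 fold change (y axis) of each gene tested against its mean level in CPM (x axis, log scale), with the all-gene scaling on the left and the abundant-gene scaling on the right. Blue points are the 1523 genes lower and red points the 510 genes higher under both scalings, dotted lines mark 2-fold, and the yellow line is the median, at -0.79 on the left and 0.43 on the right.

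The excess of weakly expressed genes in the atf4a/b-labelled libraries included genes of tissues other than liver. Of 313 odorant, taste and vomeronasal receptor genes, 299 had a higher mean CPM than in sec31anju221, and their summed level was 627 to 663 CPM against 191 to 196 CPM in sec31anju221 and 170 to 178 CPM in WT. Summed protocadherin levels were 213 to 219 CPM against 84.6 to 89.5 CPM. All 30 neuron and glia markers and all 33 lens and photoreceptor markers had a higher mean CPM, with sums of 214 to 231 against 64.7 to 70 CPM and 81.5 to 96.8 against 25.1 to 29.6 CPM. On this scale each of these 4 groups was above sec31anju221 by more than the 2.32-fold that separates the scalings. Weakly expressed genes in general rose on it as well. The 22661 genes under the minimum had a median log2 fold change of 1.62. With no expression minimum, 62.7% of 31100 genes were past 2-fold higher with the abundant-gene scaling. The rise was thus not particular to these groups. Their part in the differences below was not tested. Hepatocyte markers identified the tissue in both groups, with all 20 detected and a sum of 172800 to 177700 CPM against 135400 to 138600 CPM, and none of the 20 was lower under both scalings. The sum of 23 intestine markers was 604 to 643 CPM against 2786 to 2802 CPM, although 18 of the 23 had a higher mean CPM and 22 reached 1 CPM against 14. Most of that difference was FABP2, a fatty acid-binding protein used as an enterocyte marker, at 2293, 2323 and 2324 CPM in sec31anju221 and 126, 111 and 117 CPM in the atf4a/b-labelled libraries (log2 fold change -5.51 and -4.29). The exocrine pancreas sum was 103 to 110 CPM against 91.0 to 91.8 CPM, and 12 of the 15 markers had a higher mean CPM, with 14 reaching 1 CPM against 8. Of the 5 exocrine markers tested, 1 was higher and 1 lower under both scalings. The lower was amylase (amy2a), at 8.03 to 13 CPM against 48.0 to 51.7 CPM (-3.47 and -2.25). In bulk tissue fewer cells of a type and less RNA per cell cannot be told apart.

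Stress factors of the ISR were split in the atf4a/b-labelled libraries. Of 15 ISR factors tested, 5 (33.3%) were lower under both scalings and 0 higher, against 18% and 6.04% of all genes tested. Their median log2 fold change was -1.13 and 0.09, close to the -0.79 and 0.43 of all genes tested. ATF3, a stress-induced transcription factor, was 81.4, 83.3 and 82.6 CPM in sec31anju221, 1.89, 3.16 and 1.71 CPM in the atf4a/b-labelled libraries and 19.3 to 19.9 CPM in WT (-6.40 and -5.19). DDIT3, which encodes the pro-apoptotic factor Chop, was 95.1, 104 and 97.6 CPM against 17.6, 18.9 and 17.5 CPM, with 9.99 to 11.4 CPM in WT (-3.67 and -2.45). In both genes every atf4a/b-labelled library was below every sec31anju221 library, and ATF3 was also below WT on this scale. DDIT3 was below sec31anju221 in the xbp1-/-, atf6-/-, srebf1-/- and srebf2-/- lines too, with values given below.

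The remaining factors that were lower act at other points of the response. JDP2, an AP-1 family repressor, was 14.2 to 16.3 CPM in sec31anju221 and 1.44 to 2.07 CPM in the atf4a/b-labelled libraries (-4.34 and -3.13). EIF2AK3, which encodes Perk, was 25.4 to 26.4 CPM against 4.87 to 7.28 CPM (-3.39 and -2.18). The gene ppp1r15a, whose product directs dephosphorylation of eIF2α, was 45.9 to 46.9 CPM against 16.5 to 18 CPM (-2.63 and -1.41). Other targets usually assigned to Atf4 were not called. The pseudokinase gene TRIB3 was 25.3, 25.5 and 25.3 CPM in sec31anju221 and 51.3, 54.7 and 48.9 CPM in the atf4a/b-labelled libraries (-0.19 and 1.02). The most abundant listed factor, the translation repressor eif4ebp3, was 678 to 693 CPM against 586 to 601 CPM and 2478 to 2528 CPM in WT (-1.42 and -0.20). For TRIB3 the sign depended on the scaling.

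**Figure D2:**
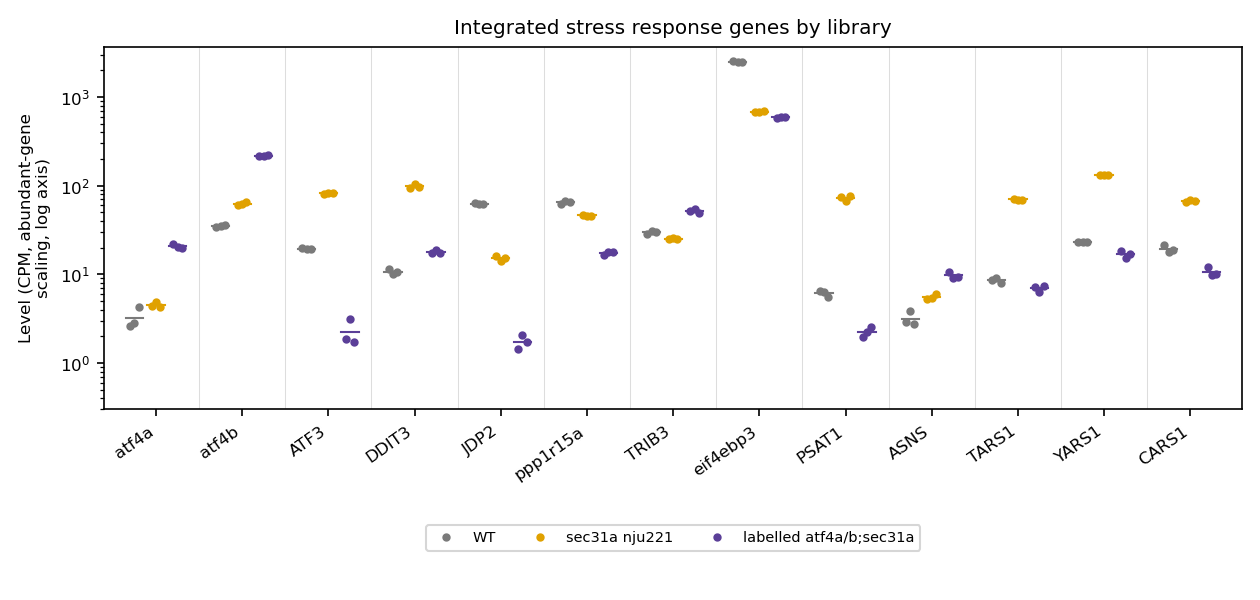
Level in CPM (y axis, log scale, abundant-gene scaling) of 13 ISR genes and Atf4 target genes in WT (grey), sec31anju221 (yellow) and atf4a/b-labelled (purple) libraries, with a point per library and a bar at the mean. The purple points of atf4a and atf4b lie above the yellow ones, and those of ATF3, DDIT3, PSAT1, TARS1, YARS1 and CARS1 lie below them.

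Amino acid synthesis genes did not move together, whereas the tRNA synthetases were largely lower. Among 13 tested genes of serine, one-carbon and asparagine synthesis, 1 was lower and 1 higher (7.7% each, median -0.41 and 0.81). Over all genes tested these shares were 18% and 6.04%. The lower was PSAT1, the aminotransferase of serine synthesis, at 74.8, 67.7 and 76.6 CPM in sec31anju221, 1.98, 2.26 and 2.52 CPM in the atf4a/b-labelled libraries and 5.55 to 6.57 CPM in WT (-6.23 and -5.01). Every atf4a/b-labelled library was below every library of the other genotypes shown. The higher was GOT1, the cytosolic aspartate aminotransferase, at 98.8 to 106 CPM against 469 to 507 CPM (1.04 and 2.26). Asparagine synthetase (ASNS), a standard Atf4 target, was 5.24, 5.44 and 6.02 CPM against 10.6, 9.20 and 9.46 CPM (-0.41 and 0.81), so its sign depended on the scaling.

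Of 16 cytosolic tRNA synthetases tested, which charge tRNAs with amino acids, 10 (62.5%) were lower under both scalings and 0 higher (median -2.46 and -1.25). Over all genes tested 18% were lower and 6.04% higher. TARS1, for threonine, was 69.7 to 70.7 CPM in sec31anju221, 6.31 to 7.48 CPM in the atf4a/b-labelled libraries and 8.04 to 9.16 CPM in WT (-4.54 and -3.32). YARS1, for tyrosine and the most abundant of them, was 131, 131 and 131 CPM against 18.3, 15.2 and 17.2 CPM, with 23.0 to 23.5 CPM in WT (-4.17 and -2.95). CARS1, for cysteine, was 65.4 to 68.3 CPM against 9.74 to 12.2 CPM (-3.86 and -2.64). In these 3 genes the atf4a/b-labelled levels lay near or below those of WT. The 14 amino acid transporter genes were mixed, with 2 lower (14.3%) and 3 higher (21.4%), and a median of -0.25 and 0.97. SLC3A2, the heavy chain shared by several amino acid exchangers, was 41.5 to 43.4 CPM against 14.8 to 18 CPM (-2.62 and -1.40), and SLC1A4, a neutral amino acid transporter, was 12.8 to 14.6 CPM against 4.60 to 5.57 CPM (-2.69 and -1.47). The glycine transporter SLC6A9 was 15.2, 14.7 and 15.3 CPM against 186, 190 and 187 CPM (2.42 and 3.63), and the glutamine transporter SLC38A3 was 147 to 152 CPM against 693 to 701 CPM (1.0 and 2.22). The call of SLC38A3 lay at the threshold and ended without sec31anju221 replicate 1 (0.99 with the all-gene scaling) and, by less than the rounding, without sec31anju221 replicate 2 or atf4a/b-labelled replicate 2.

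The 3 lists with the highest shares of lower genes belonged to the ER and early secretory pathway. In the ER translocon and signal peptidase list, which inserts nascent proteins into the ER and trims their signal peptides, 19 of 23 genes tested (82.6%) were lower under both scalings and 0 higher, with a median of -3.38 and -2.16. The corresponding numbers were 18 of 23 (78.3%, median -3.31 and -2.10) for ER chaperones and folding enzymes, and 20 of 26 (76.9%, median -3.88 and -2.67) for the COPI coat, Arf and retrieval. Below the proteasome subunits (63.2%), tRNA synthetases (62.5%) and cholesterol synthesis (55.6%) came 11 of 21 (52.4%, median -2.35 and -1.13) for the COPII coat and ER export, and 9 of 19 (47.4%, median -2.0 and -0.79) for ER-associated degradation. In the 5 ER, COPI and COPII lists no gene was higher under both scalings. The background was 18% over all genes tested and 27.5% among those of 20 to 100 CPM.

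**Figure D3:**
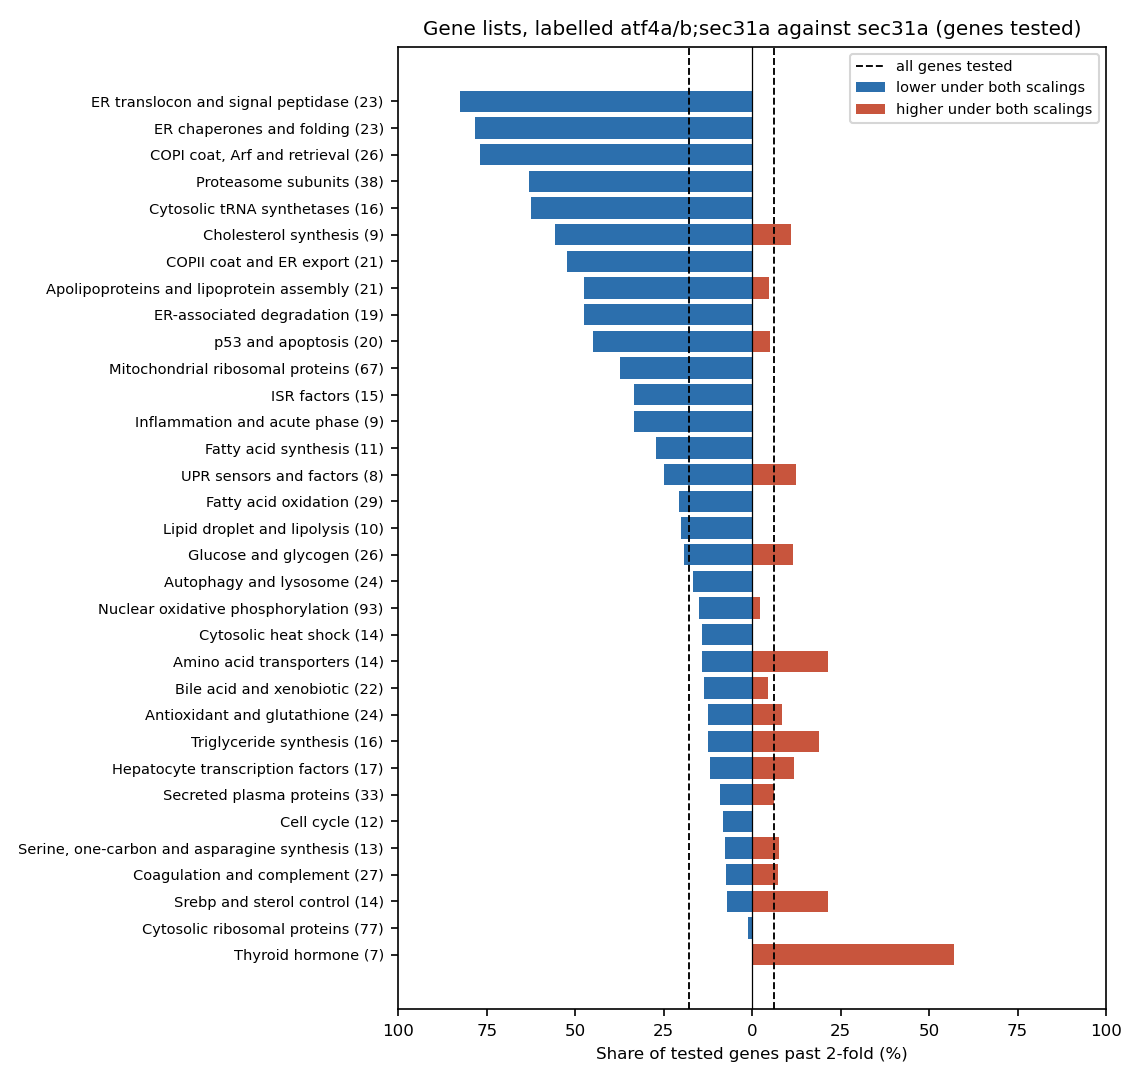
Share of the tested genes of each list (x axis, percent) that were past 2-fold lower (blue, to the left) or higher (red, to the right) under both scalings, with the number of genes tested in parentheses. Dashed lines mark the 18% lower and 6.04% higher of all 8439 genes tested, and the longest blue bar is that of the ER translocon and signal peptidase, at 82.6%.

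In the translocon, SEC61B, a subunit of the protein-conducting channel, was 987, 1002 and 999 CPM in sec31anju221, 43.0, 43.5 and 45.1 CPM in the atf4a/b-labelled libraries and 131 to 135 CPM in WT (-5.72 and -4.50). SRP19, a protein of the signal recognition particle, was 196 to 202 CPM against 6.40 to 8.18 CPM (-5.96 and -4.75), and SEC11A, the catalytic subunit of signal peptidase, was 399 to 411 CPM against 19.9 to 22.4 CPM (-5.46 and -4.25). The channel subunit SEC61A1 has 2 identifiers that went apart. ENSDARG00000005675 was 1007, 1023 and 1016 CPM against 96.0, 102 and 98.8 CPM (-4.57 and -3.36). ENSDARG00000021669 was 4486, 4455 and 4410 CPM against 8584, 8622 and 8622 CPM (-0.26 and 0.95), and it was not called. How the counting shared reads between close copies is not given in the sources used here, so the split between such pairs is uncertain.

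Among chaperones, HSPA5, which encodes the main ER Hsp70 BiP, was 71, 70 and 72 CPM in sec31anju221, 7.73, 8.93 and 11.5 CPM in the atf4a/b-labelled libraries and 24 to 28.4 CPM in WT (-4.13 and -2.92). PDIA6, a disulfide isomerase, was 45.9, 43.4 and 45.4 CPM against 1.89, 1.17 and 1.80 CPM (-6.00 and -4.79). Those 1.17 to 1.89 CPM rest on 13 to 21 counts per library. DNAJB11, a co-chaperone of BiP, was 107 to 109 CPM against 8.0 to 9.10 CPM (-4.86 and -3.64), MANF, a secreted ER stress factor, was 352 to 371 CPM against 43.6 to 47.6 CPM (-4.22 and -3.0), and the ER thioredoxin-domain gene txndc11 was 10.6 to 11 CPM against 0.811 to 1.53 CPM (-4.49 and -3.28). The most abundant member, the disulfide isomerase P4HB, did not follow them, at 2617 to 2669 CPM against 2464 to 2512 CPM and 432 to 440 CPM in WT (-1.30 and -0.09).

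In ER-associated degradation, which returns misfolded proteins to the cytosol for the proteasome, the ubiquitin-conjugating enzyme UBE2J1 was 39.0 to 42.4 CPM in sec31anju221 and 1.53 to 2.43 CPM in the atf4a/b-labelled libraries, with 0.236 to 0.415 CPM in WT (-5.58 and -4.37). The retrotranslocation proteins DERL1 and DERL2 were 4076 to 4120 against 994 to 1035 CPM (-3.23 and -2.01) and 28.8 to 32.1 against 4.14 to 5.95 CPM (-3.83 and -2.61). Proteasome subunits had 24 of 38 genes lower (63.2%, median -2.49 and -1.28) and 0 higher. The sensors and factors of the UPR were mixed, with 2 of 8 lower (25%) and 1 higher (12.5%). Over all genes tested these shares were 18% and 6.04%. The lower UPR genes were creb3l3a and EIF2AK3, the latter already given among the ISR factors. The liver factor creb3l3a was 52.6 to 61.3 CPM against 6.31 to 7.57 CPM (-4.24 and -3.03). Its relative CREB3L2, another membrane-bound transcription factor, was 3.57 to 3.94 CPM against 36.6 to 39.7 CPM (2.13 and 3.34). XBP1, the factor downstream of Ire1, was 70.9 to 75.6 CPM against 50.2 to 57.8 CPM (-1.66 and -0.45), and atf6 was 228 to 238 CPM against 194 to 212 CPM (-1.41 and -0.20), so neither was called.

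In COPII export, MCFD2 and LMAN1, which form a cargo receptor for coagulation factors, were 1122 to 1144 CPM in sec31anju221 and 121 to 133 CPM in the atf4a/b-labelled libraries (-4.37 and -3.16), and 141 to 145 against 22.1 to 22.9 CPM (-3.89 and -2.68). TMED10, a p24 cargo adaptor, was 209 to 215 against 35.3 to 37.7 CPM (-3.75 and -2.53). The retrieval side held SEC22B, the largest fall among the genes named here. SEC22B (ENSDARG00000030108), an ER to Golgi SNARE, was 3440, 3466 and 3402 CPM in sec31anju221, 4.23, 4.42 and 3.60 CPM in the atf4a/b-labelled libraries and 9.70 to 13.4 CPM in WT (-10.93 and -9.71). The small GTPase gene arf4a was 4351, 4387 and 4360 CPM against 19.8, 17.9 and 19.2 CPM, with 111 to 113 CPM in WT (-9.06 and -7.85). Its paralog arf4b was 622, 615 and 614 CPM against 1.53, 1.62 and 1.53 CPM, with 0.651 to 1.18 CPM in WT (-9.83 and -8.62). The atf4a/b-labelled values of arf4b are 17 or 18 counts per library, and its fold difference on the abundant-gene scale, 395, had a 95% counting interval of 301 to 529 (exact binomial, counting error only). All 3 genes were thus abundant in sec31anju221 and far lower in WT and the atf4a/b-labelled libraries. They were also below sec31anju221 in the xbp1-/-, atf6-/-, srebf1-/- and srebf2-/- lines, so their fall was not particular to atf4a/b loss. A second SEC22B identifier, ENSDARG00000100435, was 16.2 to 19.5 CPM against 0.992 to 2.07 CPM (-4.85 and -3.64).

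**Figure D4:**
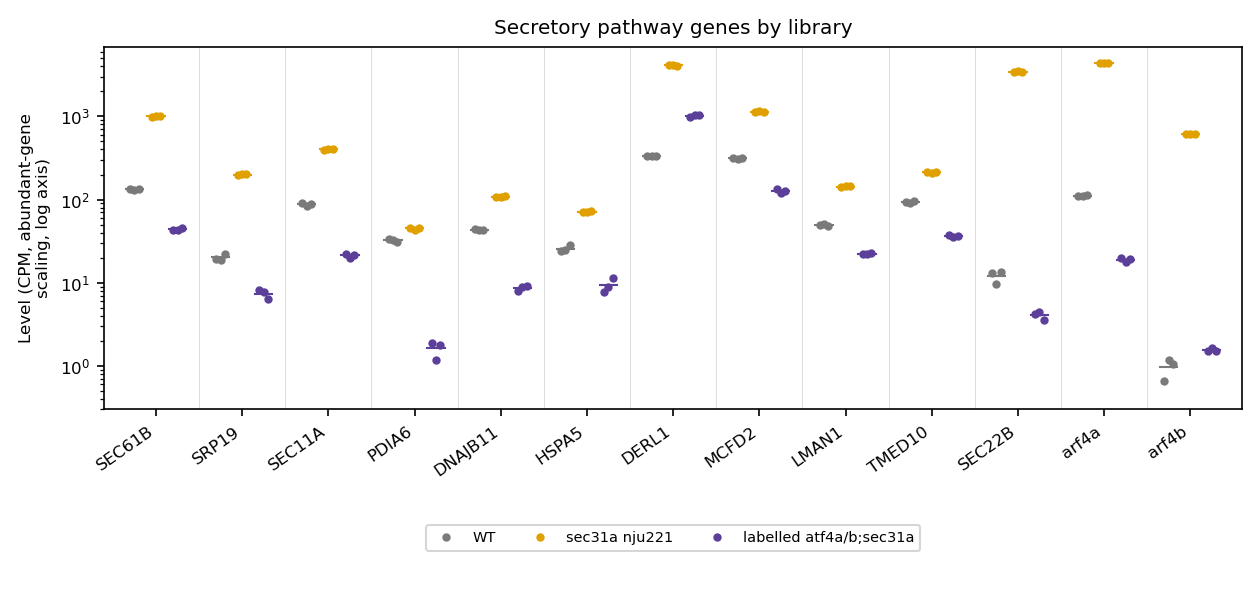
Level in CPM (y axis, log scale, abundant-gene scaling) of 13 secretory pathway genes that were past 2-fold lower under both scalings, in WT (grey), sec31anju221 (yellow) and atf4a/b-labelled (purple) libraries, with a point per library and a bar at the mean. Purple lies below yellow for every gene because of that choice, most widely for SEC22B (3402 to 3466 against 3.60 to 4.42 CPM), arf4a and arf4b. The abundant SEC61A1 (ENSDARG00000021669) and P4HB, which were not called, are not shown.

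Sterol genes divided between synthesis enzymes and regulators. Of 9 cholesterol synthesis genes tested, 5 were lower (55.6%) and 1 higher (11.1%), against 18% and 6.04% of all genes tested (median -2.70 and -1.49). HMGCS1, which makes the HMG-CoA of the pathway, was 28.9, 28 and 26.8 CPM in sec31anju221 and 5.39, 7.31 and 5.32 CPM in the atf4a/b-labelled libraries (-3.43 and -2.21), and phosphomevalonate kinase (PMVK) was 28.2 to 31.7 against 3.87 to 6.31 CPM (-3.70 and -2.49). DHCR7, the last enzyme of the pathway, went the other way, at 34.6, 36.1 and 32.5 CPM against 256, 246 and 259 CPM, with 20.8 to 24.4 CPM in WT (1.66 and 2.88). Of 14 genes of sterol control, 1 was lower (7.1%) and 3 higher (21.4%). The gene insig1, whose product holds Srebp precursors in the ER when sterols suffice, was 49.5, 51.4 and 50.6 CPM against 1157, 1169 and 1156 CPM, with 153 to 166 CPM in WT (3.31 and 4.52). The Srebp gene srebf2 was 2.71, 2.77 and 3.98 CPM against 13.3, 17.8 and 14.9 CPM (1.06 and 2.28). Its all-gene value was under 2-fold without sec31anju221 replicate 1 (0.97), without sec31anju221 replicate 2 (0.975) and without atf4a/b-labelled replicate 2 (0.94), so that its call rests on single libraries. SREBF1 was 1.04 to 1.22 CPM against 1.71 to 3.78 CPM (0.03 and 1.24), under the expression minimum. MYLIP (ENSDARG00000008859), a ubiquitin ligase for the LDL receptor, was 9.39 to 10.8 against 48.7 to 53 CPM (1.12 and 2.33), and the cholesterol exporter abca1b was 37.5 to 42.2 against 14.5 to 15.2 CPM (-2.66 and -1.44).

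Lipid enzymes outside the sterol pathway gave shares on both sides of the background of 18% lower and 6.04% higher. Fatty acid synthesis had 3 of 11 genes lower (27.3%) and 0 higher. Triglyceride synthesis had 2 of 16 lower (12.5%) and 3 higher (18.8%). Nearer the background for lower genes were lipid droplet and lipolysis genes, with 2 of 10 lower (20%), and fatty acid oxidation, with 6 of 29 (20.7%). Both of these lists had 0 higher. The inhibitor of the lipase Atgl, g0s2, was 3817, 3826 and 3842 CPM in sec31anju221, 52.6, 57.9 and 59.0 CPM in the atf4a/b-labelled libraries and 904 to 917 CPM in WT (-7.30 and -6.08). Malic enzyme ME1, which supplies NADPH for fatty acid synthesis, was 37.3 to 38.2 against 3.24 to 4.05 CPM (-4.59 and -3.37), and the elongase genes elovl8b and ELOVL1 were 26.7 to 28.3 against 3.33 to 4.06 CPM (-4.08 and -2.86) and 59.5 to 62.6 against 14.6 to 17.1 CPM (-3.18 and -1.96). FITM2, which helps lipid droplets bud from the ER, was 14.5 to 15.1 against 2.79 to 3.69 CPM (-3.42 and -2.21). DGAT2, which makes triglyceride, was 26.6 to 27.8 against 7.67 to 10.7 CPM and 43.2 to 45.9 CPM in WT (-2.84 and -1.63). A fatty acid transport protein, SLC27A1 (ENSDARG00000104949), was 7.86 to 9.25 against 1.17 to 1.98 CPM (-3.65 and -2.44), and the acyl-CoA synthetase ACSL4 (ENSDARG00000004078) was 4.21 to 4.51 against 51.7 to 54.1 CPM (2.36 and 3.58). The most abundant member of the triglyceride synthesis list, AGPAT2, was 624 to 662 against 593 to 617 CPM (-1.33 and -0.11).

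Among oxidation genes, the carnitine octanoyltransferase CROT was 43.4 to 46.4 CPM in sec31anju221 and 6.49 to 7.73 CPM in the atf4a/b-labelled libraries (-3.88 and -2.66), the trifunctional protein gene hadhaa was 141 to 149 against 38.4 to 44.1 CPM (-3.02 and -1.80), and the short-chain dehydrogenase ACADS was 6.85 to 7.88 against 1.71 to 2.97 CPM (-2.83 and -1.61). Of 21 apolipoprotein and lipoprotein assembly genes, 10 (47.6%) were lower and 1 higher, against 18% and 6.04% of all genes tested (median -1.96 and -0.74). The level of apoa4a was 92.8, 96.4 and 92.0 CPM against 0.270, 0.541 and 0.270 CPM, with 27.8 to 28.1 CPM in WT, and the atf4a/b-labelled values are 3, 6 and 3 counts. The log2 fold change was -9.19 and -7.99, and the fold difference on the abundant-gene scale, 260, had a 95% counting interval of 149 to 504. The level of apoea was 50.4 to 51.9 against 2.61 to 2.79 CPM (-5.45 and -4.24) and that of apoa4b.3 was 23.5 to 25.8 against 0.992 to 2.16 CPM (-5.05 and -3.83). The transcript apoa2 was 105370 to 108620 against 110540 to 115580 CPM (-1.15 and 0.07).

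Genes of glucose and glycogen metabolism had 5 of 26 lower (19.2%) and 3 higher (11.5%), against 18% and 6.04% of all genes tested. PPP1R3B, which brings protein phosphatase 1 to glycogen and favours its synthesis, was 74.2, 71.0 and 73.6 CPM in sec31anju221, 5.30, 5.14 and 3.96 CPM in the atf4a/b-labelled libraries and 28 to 29.2 CPM in WT (-5.14 and -3.92). Liver pyruvate kinase (PKLR) was 182 to 195 against 67.6 to 71.2 CPM (-2.66 and -1.45). Both act in glucose use and storage. The gluconeogenic PCK1 was 144, 138 and 140 CPM against 759, 769 and 742 CPM, with 218 to 228 CPM in WT (1.21 and 2.43). GAPDH, the most abundant of the list, was 1388 to 1403 against 3210 to 3263 CPM (0.00 and 1.21), so that its direction was set by the scaling.

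Lists that describe hepatocyte output and identity held smaller shares of lower genes than the 18% of all genes tested. Their shares of higher genes lay near or below 6.04%, except for the hepatocyte transcription factors. Secreted plasma proteins had 3 of 33 lower and 2 higher (median -0.74 and 0.48), and coagulation and complement had 2 of 27 lower and 2 higher (median -0.44 and 0.78). Hepatocyte transcription factors had 2 of 17 lower and 2 higher (11.8% each), and bile acid and xenobiotic genes 3 of 22 lower and 1 higher. Retinol-binding protein RBP4, the most abundant secreted protein listed, was 8871 to 8962 CPM in sec31anju221 and 24230 to 25068 CPM in the atf4a/b-labelled libraries (0.25 and 1.47), and complement c3a.1 was 1432 to 1453 against 4457 to 4476 CPM (0.41 and 1.63). The 2 lower genes of that list were cfh, an inhibitor of the alternative pathway, at 587 to 608 against 146 to 155 CPM (-3.20 and -1.99) and cfd, an activating protease of the same pathway, at 64.9 to 69.9 against 15.7 to 16.2 CPM (-3.29 and -2.08). A protein C identifier, PROC (ENSDARG00000093079), was 0.181 to 0.454 against 16.2 to 20 CPM (4.42 and 5.62), on 23 counts over the 3 sec31anju221 libraries. RBP2 (ENSDARG00000070038), a cellular retinol-binding protein, was 213 to 216 against 54.3 to 57.7 CPM and 1889 to 1897 CPM in WT (-3.14 and -1.92), and haptoglobin (hp) and serpinf1 were 14.2 to 15.4 against 4.69 to 6.02 CPM (-2.71 and -1.49) and 7.21 to 9.66 against 2.52 to 3.15 CPM (-2.81 and -1.60).

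Among the hepatocyte factors, CEBPD was 207 to 219 CPM in sec31anju221, 295 to 306 CPM in the atf4a/b-labelled libraries and 1091 to 1130 CPM in WT (-0.72 and 0.50). The cytochrome P450 genes cyp2p7, cyp2p8 and cyp2aa1 were 114 to 123 against 33.8 to 37.3 CPM (-2.93 and -1.72), 20.5 to 22.0 against 8.54 to 9.38 CPM (-2.46 and -1.25), and 23.0 to 24.9 against 9.83 to 10.5 CPM (-2.44 and -1.22). The bile salt export pump ABCB11 (ENSDARG00000070078) was 1243 to 1259 against 662 to 686 CPM (-2.11 and -0.90). Of these transport and detoxification genes, the P450 genes were called and the pump was not.

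The thyroid hormone list had the highest share of higher genes, 4 of 7 tested (57.1%) with 0 lower, and a median of 1.22 and 2.44. Over all genes tested 6.04% were higher under both scalings, and 34.6% with the abundant-gene scaling alone. DIO1, the deiodinase that activates thyroxine in liver and a known thyroid hormone target, was 1.90, 1.81 and 0.951 CPM in sec31anju221, 55.7, 48.6 and 48.1 CPM in the atf4a/b-labelled libraries and 34.0 to 36.3 CPM in WT (3.81 and 5.02). The carrier TTR was 114, 113 and 116 CPM against 979, 947 and 983 CPM, with 601 to 614 CPM in WT (1.87 and 3.09). KLF9, a transcription factor induced by thyroid hormone in other vertebrates, was 5.28, 4.04 and 5.25 CPM against 38.9, 35.9 and 34.4 CPM, with 36.2 to 37.2 CPM in WT (1.69 and 2.90). In these 3 genes the sec31anju221 libraries were below WT on this scale. The atf4a/b-labelled libraries lay above WT for DIO1 and TTR and overlapped it for KLF9 on this scale only. With the all-gene scaling they lay below WT for all 3 genes. Its library factors were 0.483 to 0.487 in WT and 1.56 to 1.58 in the atf4a/b-labelled libraries. Those of the abundant-gene scaling were 0.731 to 0.737 and 0.951 to 0.957. The list holds only 7 genes tested, and TTR is also among the hepatocyte markers.

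**Figure D5:**
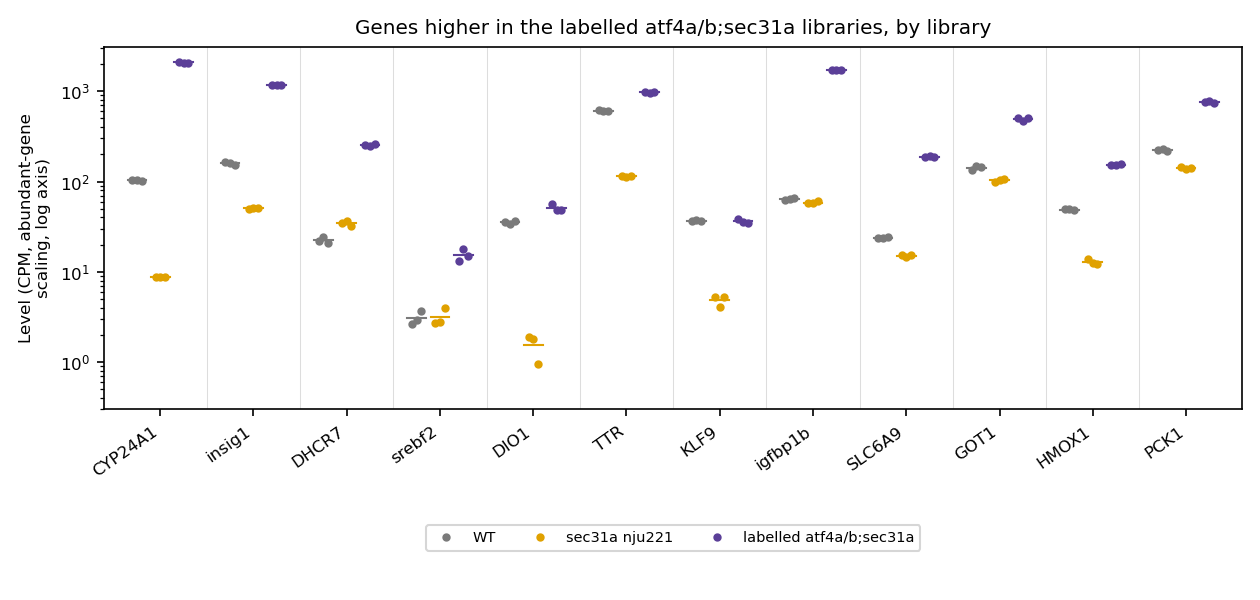
Level in CPM (y axis, log scale, abundant-gene scaling) of 12 genes that were past 2-fold higher under both scalings with all libraries in, in WT (grey), sec31anju221 (yellow) and atf4a/b-labelled (purple) libraries, with a point per library and a bar at the mean. Purple lies above yellow for every gene, from srebf2 (13.3 to 17.8 against 2.71 to 3.98 CPM) to CYP24A1 (2059 to 2098 against 8.67 to 8.80 CPM).

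Stress, growth and protein turnover lists outside the ER gave differing results. The p53 and apoptosis list had 9 of 20 genes lower (45.0%) and 1 higher (5.0%), with a median of -1.89 and -0.67. Over all genes tested 18% were lower and 6.04% higher. The 2 identifiers of GADD45A, a DNA damage and stress response gene, were 30.2 to 32.5 CPM in sec31anju221 and 3.33 to 4.24 CPM in the atf4a/b-labelled libraries (-4.33 and -3.11) and 52.0 to 54.3 against 5.57 to 8.48 CPM (-4.14 and -2.93). The p53 target rps27l was 1493, 1519 and 1520 against 330, 337 and 353 CPM, with 522 to 548 CPM in WT (-3.37 and -2.15). Inflammation and acute phase genes had 3 of 9 lower (33.3%) and 0 higher. The lower ones were the chemokine gene cxcl18b at 9.93 to 12.6 against 0.539 to 1.17 CPM (-4.97 and -3.76) and the NF-κB inhibitors nfkbiaa and nfkbiab at 7.57 to 8.42 against 1.17 to 1.89 CPM (-3.51 and -2.29) and 131 to 144 against 32.8 to 36.9 CPM (-3.20 and -1.98). Hepcidin (hamp) was 4276 to 4347 against 7577 to 7690 CPM (-0.39 and 0.83).

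The autophagy and lysosome, antioxidant, cytosolic heat shock and cell cycle lists had 16.7%, 12.5%, 14.3% and 8.3% of genes lower. These shares were all under the 18% of all genes tested. Among antioxidant genes 8.3% were higher, against 6.04%. Autophagy and lysosome genes had 4 of 24 lower and 0 higher. The autophagy receptor SQSTM1 was 145 to 151 CPM in sec31anju221 and 31.4 to 39.4 CPM in the atf4a/b-labelled libraries (-3.29 and -2.08). The cathepsins CTSB (ENSDARG00000055120) and CTSD were 40.5 to 44.4 against 8.20 to 9.83 CPM (-3.48 and -2.27) and 260 to 265 against 72.5 to 73.5 CPM (-3.06 and -1.84). The most abundant member, gabarapb, was 657 to 660 against 413 to 427 CPM (-1.87 and -0.65). Antioxidant genes had 3 of 24 lower, which were the peroxiredoxins prdx1 (124 to 135 against 26.5 to 30.4 CPM, -3.38 and -2.17), PRDX4 (75.3 to 79.2 against 25.9 to 28.7 CPM, -2.71 and -1.49) and prdx6 (610 to 625 against 241 to 249 CPM, -2.56 and -1.34). The 2 higher were heme oxygenase HMOX1, at 13.7, 12.5 and 12.2 CPM against 153, 152 and 156 CPM (2.37 and 3.59), and NFE2L2, the factor that regulates such genes, at 185 to 196 against 1120 to 1132 CPM (1.35 and 2.57). The glutathione peroxidase gpx4a was 1214 to 1229 against 3414 to 3434 CPM (0.27 and 1.49). Cytosolic heat shock genes had 2 of 14 lower, HSPA4 (ENSDARG00000018989, 264 to 270 against 92.3 to 102 CPM, -2.65 and -1.44) and the mitochondrial HSPA9 (189 to 192 against 88.0 to 100 CPM, -2.22 and -1.01), and the abundant chaperone HSP90AB1 was 1135 to 1161 against 1365 to 1387 CPM (-0.95 and 0.27). Cell cycle genes had 1 of 12 lower, the cyclin gene CCND1, at 53.1 to 56.2 against 25.3 to 27.5 CPM (-2.26 and -1.04). With the abundant-gene scaling CCND1 (-0.99) and HSPA9 (-0.94) were under 2-fold without atf4a/b-labelled replicate 2, and HSPA9 also without replicate 3 (-0.995).

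Large families gave a frame for these shares. Of 77 cytosolic ribosomal protein genes, 1 was lower and 0 higher, with a median of -0.80 and 0.41 that equals the median of all genes tested within 0.02. Mitochondrial ribosomal proteins had 25 of 67 lower (37.3%, median -1.92 and -0.70) and 0 higher, and nuclear genes of oxidative phosphorylation had 14 of 93 lower (15.1%) and 2 higher. Of 13 transcripts encoded by mitochondrial DNA, 1 was lower. Thus the ribosomal proteins of the mitochondrion and the proteasome subunits held a larger share of lower genes than the background, and the cytosolic ribosome and the respiratory chain did not.

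Over genes called under both scalings that averaged 20 CPM or more, the 12 largest rises of genes with an assigned name were led by CYP24A1, the vitamin D hydroxylase, at 8.67, 8.80 and 8.74 CPM in sec31anju221, 2098, 2059 and 2074 CPM in the atf4a/b-labelled libraries and 101 to 105 CPM in WT (6.68 and 7.89). They included igfbp1b, an insulin-like growth factor binding protein, at 58.2, 57.3 and 60.2 against 1725, 1720 and 1696 CPM (3.65 and 4.87), and insig1 and DIO1 above. The membrane protein gene TMEM170A was 13.5 to 15.8 against 463 to 476 CPM with 8.22 to 9.16 CPM in WT (3.81 and 5.03), and the mitochondrial acetyl-CoA synthetase ACSS1 was 4.54 to 5.21 against 91.1 to 101 CPM (3.13 and 4.34). The ribonuclease gene RNASEK and the respiratory chain gene COX6A1 were 3.07 to 4.16 against 417 to 431 CPM (5.66 and 6.88) and 1.58 to 1.95 against 109 to 121 CPM (4.75 and 5.96), with 53.5 to 55.3 and 72.5 to 76.5 CPM in WT. The other 4 were bnip4 (0.227 to 0.634 against 41.3 to 47.7 CPM), FHL1 (0.679 to 0.998 against 51.8 to 56.0 CPM), the reticulon rtn1a (1.67 to 2.53 against 82.5 to 86.9 CPM) and the sorting nexin SNX10 (3.43 to 3.90 against 84.3 to 101 CPM). Over the 3 sec31anju221 libraries bnip4 and FHL1 rest on 26 and 53 counts. In the xbp1-/-, atf6-/-, srebf1-/- and srebf2-/- libraries bnip4 averaged 29.6, 55.3, 47.9 and 32.0 CPM, so its rise was not particular to atf4a/b loss. Outside these 12 and chosen after their values were seen, the amino acid enzyme TAT was 559 to 570 against 6752 to 6778 CPM (2.37 and 3.58) and IGFBP1 was 498 to 507 against 4969 to 5016 CPM (2.09 and 3.31).

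By the same rule the 12 largest falls were SEC22B, arf4b, apoa4a, arf4a, g0s2 and a further 7 genes. GGCX, the vitamin K-dependent carboxylase of clotting factors in the ER, was 6484, 6529 and 6537 CPM in sec31anju221, 70, 70 and 70 CPM in the atf4a/b-labelled libraries and 1670 to 1691 CPM in WT (-7.76 and -6.54). PMM2, which supplies mannose for N-glycosylation in the ER, was 773, 782 and 783 CPM against 11, 14.3 and 11.5 CPM, with 14.0 to 16.0 CPM in WT (-7.21 and -5.99). Both act on proteins of the secretory pathway. The phosphatase gene CDKN3 was 246 to 253 against 3.42 to 4.41 CPM (-7.19 and -5.97) and rarres3 was 363 to 379 against 4.96 to 5.59 CPM (-7.32 and -6.11). The ubiquitin-like gene isg15 was 50.8 to 55.6 against 0.271 to 0.360 CPM, which is 3 or 4 counts per library, (-8.52 and -7.32), and the fold difference on the abundant-gene scale, 163, had a 95% counting interval of 91.2 to 328. EBPL was 51.3 to 56.1 against 0.541 to 0.722 CPM (-7.61 and -6.40) and TSTD1 was 135 to 142 against 1.26 to 2.16 CPM (-7.54 and -6.33).

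The libraries labelled xbp1-/-;sec31anju221 and atf6-/-;sec31anju221 share the sec31anju221 controls and also had low totals, of 10806061 to 10811308 and 9608400 to 9611212 counts, so their values are given side by side only, as means in the order sec31anju221, atf4a/b-labelled, xbp1-/- and atf6-/-. ATF3 was 82.4, 2.25, 93.4 and 71.7 CPM. PSAT1 was 73.0, 2.25, 90.2 and 5.11 CPM, and TARS1 was 70, 6.99, 70.0 and 24.1 CPM. Of these 4 genotypes ATF3 was low in the atf4a/b-labelled libraries alone, and PSAT1 also in the atf6-/- ones. In the srebf1-/- and srebf2-/- libraries ATF3 averaged 39.3 and 46.3 CPM, and PSAT1 averaged 45.3 and 13.01 CPM. These values were also below sec31anju221, so a fall of ATF3 or PSAT1 was not particular to atf4a/b loss. Both genes were lowest in the atf4a/b-labelled libraries. DDIT3 was not. In the xbp1-/-, atf6-/-, srebf1-/- and srebf2-/- libraries it averaged 34.58, 14.06, 21.6 and 14.9 CPM. Its mean was 18.02 CPM in the atf4a/b-labelled libraries and 98.78 CPM in sec31anju221. The fall of DDIT3 was thus not particular to atf4a/b loss. HSPA5 was 71.1, 9.40, 148 and 42.9 CPM. SEC61B was 996, 43.9, 28.6 and 90.6 CPM, and arf4a was 4366, 18.9, 235 and 21.9 CPM. The secretory genes SEC61B and arf4a were thus below sec31anju221 in the atf4a/b-labelled, xbp1-/- and atf6-/- libraries. In the srebf1-/-;sec31anju221 and srebf2-/-;sec31anju221 libraries SEC61B averaged 1844 and 649 CPM, and arf4a averaged 201 and 61.2 CPM. SEC61B was therefore not lower in every line that carries a further mutation, whereas arf4a was. SEC22B (ENSDARG00000030108) and arf4b were lower in every such line too. In the xbp1-/-, atf6-/-, srebf1-/- and srebf2-/- libraries SEC22B averaged 246, 18.8, 1691 and 177 CPM against 3436 CPM in sec31anju221. In the same order arf4b averaged 92.4, 2.91, 332 and 59.5 CPM against 617 CPM. Of the other large falls, g0s2 averaged 2151, 69.3, 1006 and 886 CPM against 3828 CPM in that order. GGCX averaged 3770, 1886, 67.9 and 79.7 CPM against 6517 CPM, so neither fall was particular to atf4a/b loss. The level of apoa4a was above sec31anju221 in the srebf1-/- and srebf2-/- libraries, at 322 and 186 against 93.7 CPM. The level of insig1 was 50.5, 1161, 78.6 and 985 CPM, that of CYP24A1 was 8.73, 2077, 216 and 1093 CPM, and that of DIO1 was 1.55, 50.8, 1.68 and 66.3 CPM. In these 3 genes the atf6-/- values were the nearest to the atf4a/b-labelled ones. The srebf1-/- and srebf2-/- libraries averaged 20.6 and 58.3 CPM for insig1 and 47.6 and 202 CPM for CYP24A1. DIO1 averaged 29.1 and 70.0 CPM there, TTR 367 and 1145 CPM, and KLF9 18.7 and 39.5 CPM. All of these thyroid list values were above sec31anju221, so their rise was not particular to the atf4a/b-labelled and atf6-/- libraries. TMEM170A was 14.4, 470.4, 16.8 and 14.4 CPM, high in the atf4a/b-labelled libraries only of the 4 genotypes.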

How the data were processed

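The authors deposited raw read counts per gene for 21 libraries of 7 genotypes (3 each), made per the submitters' processing notes with bcl2fastq, FastQC 0.11.9, HISAT2 2.1.0, SAMtools 1.10 and featureCounts 1.6.0 on GRCz11; how multi-mapping reads were counted is not given in the sources used here. The study's own test was DESeq2. Names were found for 29201 of 32520 Ensembl IDs. Genes with a summed scaled count of at least 10 were kept (31100), and 8439 with a mean of at least 5 CPM over the 6 libraries were tested. Log2 fold changes are differences between group means fitted by edgeR 4.0.16 (R 4.3.3) over all 21 libraries with a prior count of 0.125, under trimmed-mean factors from all kept genes or from genes of at least 10 CPM. Because libraries of a genotype varied little beyond sampling, past 2-fold served as the call in place of a test. The fold-change computation was tested on simulated data. Counting intervals (95%, exact binomial, SciPy 1.17.1) cover counting error only and treat each count as independent. Reads without molecular identifiers are not independent molecules. Between libraries of a genotype the variance was 1.86 and 1.81 times the mean over genes of 50 to 2000 counts, so the intervals may be too narrow.

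Genes were named by rule: the disrupted and regulator genes, up to 3 called genes with the largest change and the most abundant gene of each pathway list, and the 12 largest rises and falls of genes of at least 20 CPM whose groups did not overlap, clone names left out. A further 16 were chosen after their values were seen. Some of the genes chosen are not reported here. Lists covered 711 of 762 pathway symbols and 251 of 289 marker symbols. The comparison and the lists were chosen with earlier results of these data known. Alternatives were other factors, expression minimums, fold thresholds, a replicate block, thinning, DESeq2 1.42.0 and leaving out each library. Figures used pandas 2.3.3 and matplotlib 3.10.9 under Python 3.11.15.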

Additional observations from a re-analysis of the deposited data

How the results depend on the processing

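Counts of genes past 2-fold moved with the scaling and with the expression minimum. They are given in the order higher and lower with the all-gene scaling, then higher and lower with the abundant-gene scaling, and the main values were 510, 3748, 2922 and 1523. With a minimum of 20 CPM they were 125, 1909, 532 and 841, with no minimum 6027, 6516, 19512 and 2609, and at 4-fold in place of 2-fold 109, 1814, 833 and 644. With a minimum of 1 CPM the higher counts were 2478 and 11728. Under both scalings the counts equal the higher all-gene and the lower abundant-gene count in each of these settings. Library totals alone gave 2600 higher and 1753 lower, upper-quartile factors 970 higher, and factors from ribosomal protein genes, an alternative added after the data were seen, 2290 higher and 2042 lower. These settings change the genes tested, the threshold or the factor itself. Leaving out each library in turn gave 416 to 622 higher under both scalings and 1466 to 1559 lower, and 1480 to 1512 of the 1523 lower genes and 470 to 485 of the 510 higher genes were shared. DESeq2 fold changes, DESeq2 size factors, thinning to equal totals and the 6 libraries alone stayed within 1.5 times of the main counts. All 116 called genes that were chosen for naming kept their direction in the 11 settings in which this was counted. That outcome was largely fixed in advance and lends the calls no support. The genes were chosen as past 2-fold under both scalings, and libraries of a genotype were counted as 1 sample. Upper-quartile and ribosomal protein gene factors were not among the 11 settings. Leaving out 1 library kept 112 to 116 of the 116 genes past 2-fold under both scalings. Those that did not stay were srebf2, SLC38A3, HSPA9 and CCND1. The fit with a replicate block gave 513 higher and 1524 lower under both scalings. Equal replicate numbers did not pair the libraries, with correlations of deviations of 0.017, -0.001 and 0.002. Depth limits the genes at under 1 CPM in the atf4a/b-labelled libraries, whose values rest on a few counts each.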
